A study of Mus musculus with 743 samples.

Results

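Cycling Schwann cells (SCs) of the newborn mouse sciatic nerve were the 110 cells, of 621 single cells kept, in which the reads of Mki67 and Top2a together reached 50 CPM. CPM is the read count of a gene divided by all counted reads of that cell, or of a sum of cells, times 1000000. SCs, the glia that accompany peripheral axons, were sorted for the yellow fluorescent protein eYFP into the wells of 2 plates and read with Smart-seq2, which covers whole transcripts and carries no molecular identifiers. All wells form 1 group, the sciatic nerve at postnatal day 1. The mice were of the C57bl/6J background and carried a Cre recombinase active in the SC lineage, together with ReYFP, the reporter it switches on, and βAct-DsRed. Every cell therefore comes from a Cre-positive animal and there is no untreated or Cre-negative group. Each plate took the pooled cells of 1 male and 1 female mouse of its own, which makes the plate the unit of replication (n = 2), and cells of a plate share their animals.

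SCs divide strongly in the nerve around birth. They then sort single large axons into a relation of 1 cell to 1 axon, leave the cell cycle and begin to make myelin. A dividing cell first passes the G1 restriction point, where D-type cyclins and cyclin E release E2F factors from the Rb proteins. It then loads and fires replication origins and copies its DNA in S phase, and in G2 and M phase it uses cyclins A and B with Cdk1, condenses the chromosomes and pulls them apart on the spindle, until the anaphase-promoting complex (APC/C) destroys the mitotic proteins. Mki67 encodes a protein that coats mitotic chromosomes, and Top2a the topoisomerase that untangles copied DNA. Their transcripts build up from S phase to mitosis and are low in early G1, so a cell early in the cycle can be missed by the choice.

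The reads of Mki67 and Top2a chose the cells and are given as a description. Mki67 (ENSMUSG00000031004, chr7:135689784-135716361) took 1083 CPM on plate 1 and 526 CPM on plate 2 in the cycling SCs, against 0.132 and 0.213 CPM in the other cells. Top2a (ENSMUSG00000020914, chr11:98992943-99024189) took 948 CPM on plate 1 and 723 CPM on plate 2 in the cycling SCs, against 0.311 and 0.0889 CPM in the other cells. In the 110 cells the level of Mki67 had a median of 492 CPM (0 to 3664), and that of Top2a a median of 578 CPM (0 to 4061). Both genes reached 50 CPM in 75 of them, Mki67 alone in 24 and Top2a alone in 11. Of the 511 other cells, 493 had no read of either gene and 5 had 20 CPM or more in sum. The cells nearest to the line had 37.9, 41.1, 42.9 and 44.2 CPM outside it and 63.4, 74.1, 78.3 and 99.5 CPM inside it, and 84 members had 500 CPM or more, so few cells lay near the line. Top2a overlaps Gm23451 in the annotation, so its count is uncertain by that much.

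Whether the label "cycling" holds was checked on 6 markers that took no part in the choice. They were Cdk1, the kinase of mitotic entry, its partner Ccnb1, Birc5 (survivin, of the chromosomal passenger complex), the spindle factor Tpx2, the kinetochore protein Cenpf and the spindle-associated Hmmr. A read of at least 3 of them was found in 95 of the 110 members (86.4%) and in 7 of the 511 other cells (1.37%). On plate 1 this was 88.7% of the members and on plate 2 84.2%. After each cell was thinned to 50000 reads the shares were 83.5% of 109 members and 1.18% of 507 other cells. All 6 markers were read in 49 members and none in 10. The markers were not read evenly by the way a cell had been chosen. Cells with both choosing genes had a median of 6 markers, and 1 of the 75 had fewer than 2. Cells with Mki67 alone had a median of 4, with fewer than 2 in 7 of 24, and cells with Top2a alone a median of 1, with fewer than 2 in 6 of 11. The label thus fits nearly all cells that had both genes, while some of the cells chosen on 1 gene carried little else of the cycle. In the opposite direction, the 7 other cells with 3 or more markers all belonged to the cells low in Ncmap described further on, and their summed level of the 6 markers was 1374 to 3652 CPM.

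**Figure D1:**
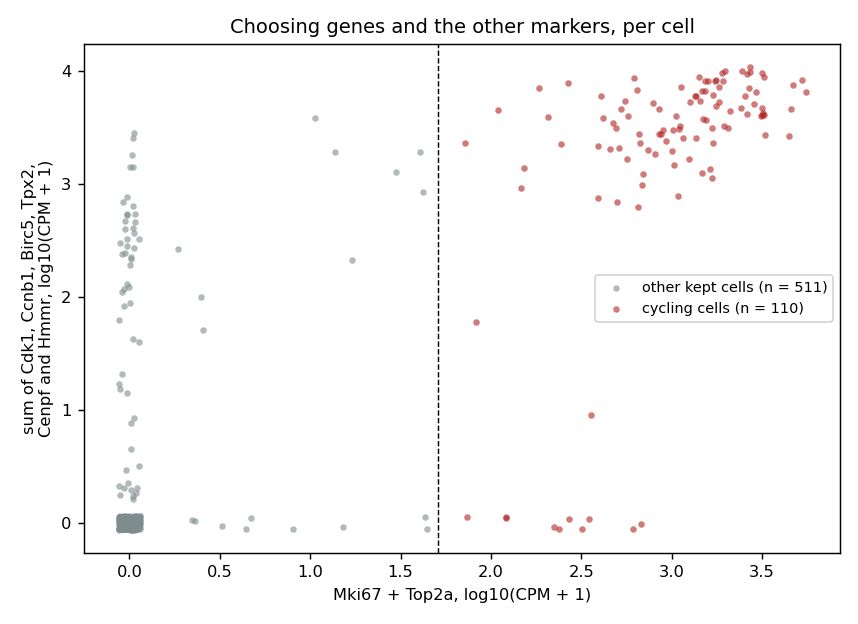
Summed level of the 6 other cycle markers against the summed level of Mki67 and Top2a, each as log10(CPM + 1), with 1 point per kept cell and a dashed line at the 50 CPM that chose the members; points were moved by a small random amount so that those at 0 can be seen. Of the 110 cycling cells, 98 had at least 500 CPM of the 6 markers, and of the 511 other cells 17 did.

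The sort and the tissue were checked in the same cells. At least 3 of 9 SC identity genes were read in 108 of the 110 members. Some markers of other cell types had no read in any of the 621 cells. They included Cdh5 and Kdr of endothelial cells, Ptprc and Tyrobp of immune cells and Acta2 and Rgs5 of mural cells. Mlana and Tyr of melanocytes, Rbfox3 of neurons and Pdgfra of fibroblasts were also at 0. For these, up to 0.483% of cells with a read remains possible, a limit on reads and not on expression. Other genes of the same lists were read. In the other cells Pecam1 of endothelial cells had 633 reads and Pdgfrb of mural cells 12835, and Cspg4 and Tubb3 were read in the members. The summed marker lists took 0.0421 and 1.24 CPM for endothelial cells in the members against 2.22 and 0.809 in the other cells, 6.34 and 6.17 against 15.7 and 16.6 for immune cells, 36.7 and 24.8 against 42.8 and 49.1 for mural cells and 32.6 and 59.3 against 56.2 and 65.1 for perineurial cells. The neuron list was higher in the members on both plates, at 14.3 and 9.92 against 5.34 and 7.12 CPM. The melanocyte list took 0 and 20.1 against 6.41 and 2.58 CPM, and the red blood cell list 0 in the members against 0.0755 and 0.0356 CPM. Of the fibroblast list, Col1a1 and Col1a2 were read in every member, while Lum had no read in any member. The plate sums of Col1a1 and Col1a2 were 842 to 3239 CPM in the members, with like levels in the other cells. At least 2 genes of this list reached 50 CPM in 52 members of plate 1 and 56 of plate 2. The part of RNA from other cells in the results was not tested. The sums of reads over the members were 47470777 on plate 1 and 45073128 on plate 2, against 212022454 and 224947094 over the other cells, and a floor of 3 reads is 0.0632 and 0.0666 CPM in the members. Without molecular identifiers a read is not a molecule, and limits and intervals cover counting error only.

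Cycling SCs made up 18.5% of the kept cells of plate 1 (53 of 287, exact Clopper-Pearson 95% interval 14.2 to 23.4%) and 17.1% of those of plate 2 (57 of 334, 13.2 to 21.5%), or 17.8% ± 0.99 (SD, n = 2). The intervals of the plates overlapped. Demanding 25 CPM of each gene left 12.2% ± 2.45. The sort, the loss of wells and the line itself set this share, which is not a rate of division.

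Cycling SCs had more genes with a read per cell than all other cells pooled, but not than the Ncmap-positive cells, those with at least 50 CPM of the myelin gene Ncmap. Their median was 3425 genes on plate 1 and 3477 on plate 2, against 2956 and 2897 in the other cells, a difference of 525 ± 78.1 genes (SD, n = 2). At 50000 reads per cell, which left out 5 cells, the difference was 433 ± 13.8. The Ncmap-positive cells had 3690 and 3550 genes and the Ncmap-low cells, the rest of the others, 2775 and 2819, and after thinning the medians were 2892 and 2916 in the members, 3070 and 2972 in the Ncmap-positive and 2311 and 2387 in the Ncmap-low cells. The members thus lay between the noncycling classes on both plates. The difference from the pooled cells was larger than its SD on both measures and was not tested. Other measures moved with the class too. The median share of mitochondrial reads was 3.03% and 3.29% in the members against 3.80% and 4.15% in the other cells, and the median summed level of the histone genes whose symbols begin with Hist was 3585 and 2460 CPM against 847 and 821 CPM. Their part in the results below was not tested.

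The main comparison asked which genes differ between cycling SCs and all other kept cells once reads are summed per plate. Genes of mitosis and of DNA replication were among the higher ones, while the few lower genes included the Cdk inhibitors Cdkn1a and Cdkn1c, the D-type cyclin Ccnd2 and several myelin genes. With edgeR's quasi-likelihood test and Benjamini-Hochberg adjustment, 177 of 13355 genes tested were higher (1.33%) and 26 lower (0.195%) at an adjusted p under 0.05. For all 203 both plates gave 1 direction, which a call on these same plates makes likely and which adds no support. The cells were chosen on 2 cycle genes and genes of the cycle are known to rise together, so the rise of cycle genes describes the cells chosen. With the plate as a block the count was 394, of which 316 were higher and 78 lower. DESeq2 called 1141 genes and placed 58.5% of them higher, against 87.2% with edgeR. A further comparison took only the 392 cells with Ncmap under 50 CPM, and another took the 119 cells with Ncmap at 50 CPM or more. Ncmap encodes a protein of noncompact myelin and marks promyelinating SCs. Against the Ncmap-low cells 116 of 13289 genes were higher (0.873%) and 14 lower (0.105%), with a share of higher calls of 89.2% in edgeR, 54.9% in DESeq2 and 71.5% without the filter on low counts. Against the Ncmap-positive cells 507 were higher (3.82%) and 281 lower (2.11%). The comparisons share the cycling sums and so are not independent of each other. In each list below, the count of genes that passed is read against these shares of all genes. Where a list median is given, the median over all genes tested was -0.06 on the log2 scale, or about -0.18 to -0.19 with the plate as a block, without the filter and with limma.

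**Figure D2:**
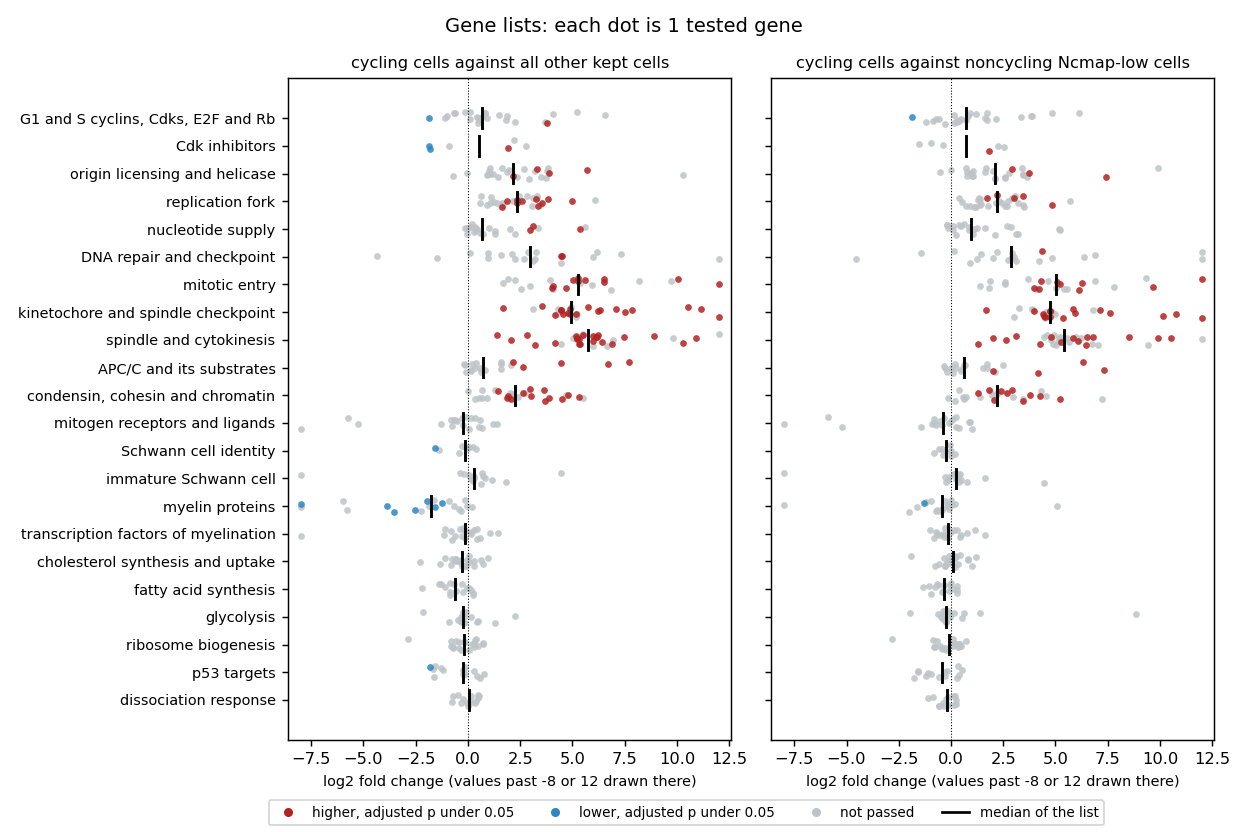
Log2 fold changes of the tested members of 22 gene lists in cycling SCs against all other kept cells (left) and against the noncycling Ncmap-low cells (right), 1 dot per gene, coloured where the edgeR adjusted p was under 0.05, with a black bar at the median of the list. The lists of mitotic entry, the kinetochore and the spindle, with medians of 5.26, 4.92 and 5.74 on the left, lie far to the right, and the myelin proteins, with a median of -1.75 on the left, lie at -0.44 on the right.

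Mitogens reach SCs from axons and matrix, chiefly neuregulin through the ErbB2 and ErbB3 receptors. Of 20 tested receptors and ligands, 0 passed the edgeR test against all other cells, and 0 passed against the Ncmap-low cells. At an unadjusted p under 0.05 lay 4 and 1 of them, DESeq2 called 1 as lower in each comparison, and limma called 0. Erbb3, the receptor that binds neuregulin, took 332 CPM on plate 1 and 235 CPM on plate 2 in the cycling SCs, against 357 and 242 CPM in the other cells (log2 fold change 0.06 with an SE of 0.30, adjusted p 0.971 in edgeR). The plates differed more than the classes did, and the sign of the fold changed with the settings. Lpar1, a receptor for lysophosphatidic acid, stood at 407 and 337 CPM in the members and at 99.9 and 92.2 in the Ncmap-positive cells, and it was the only gene of the list higher there (edgeR adjusted p 0.00164). Dag1, which encodes the laminin receptor dystroglycan, was the only gene lower, at 247 and 294 against 610.3 and 632 CPM (edgeR adjusted p 0.0109).

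The genes of G1 and of the step into S phase gave few calls. Of 25 cyclins, Cdks, E2F and Rb genes, Ccne1 was higher and Ccnd2 lower. Ccne1 (ENSMUSG00000002068, chr7:38097984-38107534), the cyclin E that drives the start of S phase, took 44.5 CPM on plate 1 and 101 CPM on plate 2 in the cycling SCs, against 6.27 and 5.34 CPM in the other cells (log2 fold change 3.76 with an SE of 0.58, adjusted p 0.0365 in edgeR). It was read in 31 of the 110 members and 13 of the 511 other cells, and its level in the members of plate 2 was above that of plate 1. The top 3 cells held 44.6% of its reads in the members. Its edgeR adjusted p against the Ncmap-low cells was 0.117. Ccnd2 (ENSMUSG00000000184, chr6:127125162-127152193) encodes cyclin D2, a partner of Cdk4 and Cdk6 in G1, and took 128 CPM on plate 1 and 202 CPM on plate 2 in the cycling SCs, against 759 and 565 CPM in the other cells (log2 fold change -1.88 with an SE of 0.29, adjusted p 0.0363 in edgeR). It was read in 50 members (45.5%) and in 411 other cells (80.4%), and after thinning in 37.6% and 72.6%. It was also lower against the Ncmap-low cells (log2 fold change -1.86, SE 0.31, edgeR adjusted p 0.0340) and the Ncmap-positive cells (-2.03, SE 0.31, edgeR adjusted p 0.00735). These comparisons share the cycling sums and are not separate support. Ccnd2 overlaps Gm43126 and 9330179D12Rik on the opposite strand, and the sources used here do not say whether counting was stranded.

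The other D-type cyclins did not pass. Ccnd1 took 637 CPM on plate 1 and 610.3 CPM on plate 2 in the cycling SCs, against 1097 and 1029.8 CPM in the other cells (log2 fold change -0.64 with an SE of 0.17, adjusted p 0.199 in edgeR). With the plate as a block its edgeR adjusted p was 0.0199. Ccnd3 took 27.6 and 76.01 CPM against 138 and 98.3 (edgeR adjusted p 0.411). Per kilobase of exon, the level of Ccnd1 was 226 CPM in the other cells, above 70.3 for Ccnd2 and 13.5 for Ccnd3. In the cycling SCs the mitotic cyclin Ccnb2 led at 689.6 CPM per kilobase, followed by Ccnb1 at 139.9, Ccnd1 at 132, Ccna2 at 76.6, Ccne1 at 27.3 and Ccnd2 at 17.5. These orders of levels were not tested. Of the E2F genes, E2f7, a repressor that acts late in S phase, took 33.5 and 58.8 CPM against 1.05 and 0.0133 (edgeR adjusted p 0.219), and passed only against the Ncmap-positive cells (edgeR adjusted p 0.0282). E2f1, the activator of S-phase genes, stood at 23.3 and 13.1 against 2.16 and 6.31 CPM (edgeR adjusted p 0.335). E2f2, E2f3, E2f4, E2f5, E2f6 and E2f8 did not pass against all other cells, with edgeR adjusted p from 0.348 to 0.981.

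The Cdk inhibitors moved in both directions, and of 6 tested genes 1 was higher and 2 were lower. Cdkn2d (ENSMUSG00000096472, chr9:21288410-21291407), which encodes the Cdk4 and Cdk6 inhibitor p19, took 322 CPM on plate 1 and 385 CPM on plate 2 in the cycling SCs, against 106 and 95.5 CPM in the other cells (log2 fold change 1.94 with an SE of 0.23, adjusted p 0.0119 in edgeR). It was higher against the Ncmap-low cells too (edgeR adjusted p 0.0160). Cdkn2c, which encodes the related p18, took 90.96 CPM on plate 1 and 122 CPM on plate 2 in the cycling SCs, against 16.9 and 33.8 CPM in the other cells and did not pass (log2 fold change 2.20 with an SE of 0.45, adjusted p 0.0998 in edgeR), whereas with the plate as a block its edgeR adjusted p was 0.0195. Both inhibitors of the Ink4 family that were read in many cells therefore stood above the level of the other cells on each plate.

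The Cip/Kip inhibitors of Cdk2 were on the other side. Cdkn1a (ENSMUSG00000023067, chr17:29090976-29100727), which encodes p21, took 165 CPM on plate 1 and 209.6 CPM on plate 2 in the cycling SCs, against 671 and 751 CPM in the other cells (log2 fold change -1.79 with an SE of 0.20, adjusted p 0.0108 in edgeR). Against the Ncmap-low cells, at 361 and 431 CPM, the log2 fold change was -0.95 (edgeR adjusted p 0.0712, 0.0145 with the plate as a block). Cdkn1c (ENSMUSG00000037664, chr7:143458339-143461050), which encodes p57, took 163 CPM on plate 1 and 240.5 CPM on plate 2 in the cycling SCs, against 651 and 953 CPM in the other cells (log2 fold change -1.86 with an SE of 0.27, adjusted p 0.0317 in edgeR). Its log2 fold change against the Ncmap-low cells was -1.52 (edgeR adjusted p 0.0502, 0.00213 with the plate as a block). Cdkn1a was read in 50.9% of the members against 64.8% of the other cells and Cdkn1c in 60.9% against 68.9%. The differences in the shares of cells were thus smaller than those in the summed levels, and the highest cell had 1361 CPM of Cdkn1a among the members and 15880 CPM among the other cells. For Cdkn1b, which encodes p27, the members stood at 25.9 and 40.7 CPM against 60.97 and 77.6 (edgeR adjusted p 0.374). Cdkn2a, the gene of p16 and Arf, had no read in any cell.

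**Figure D3:**
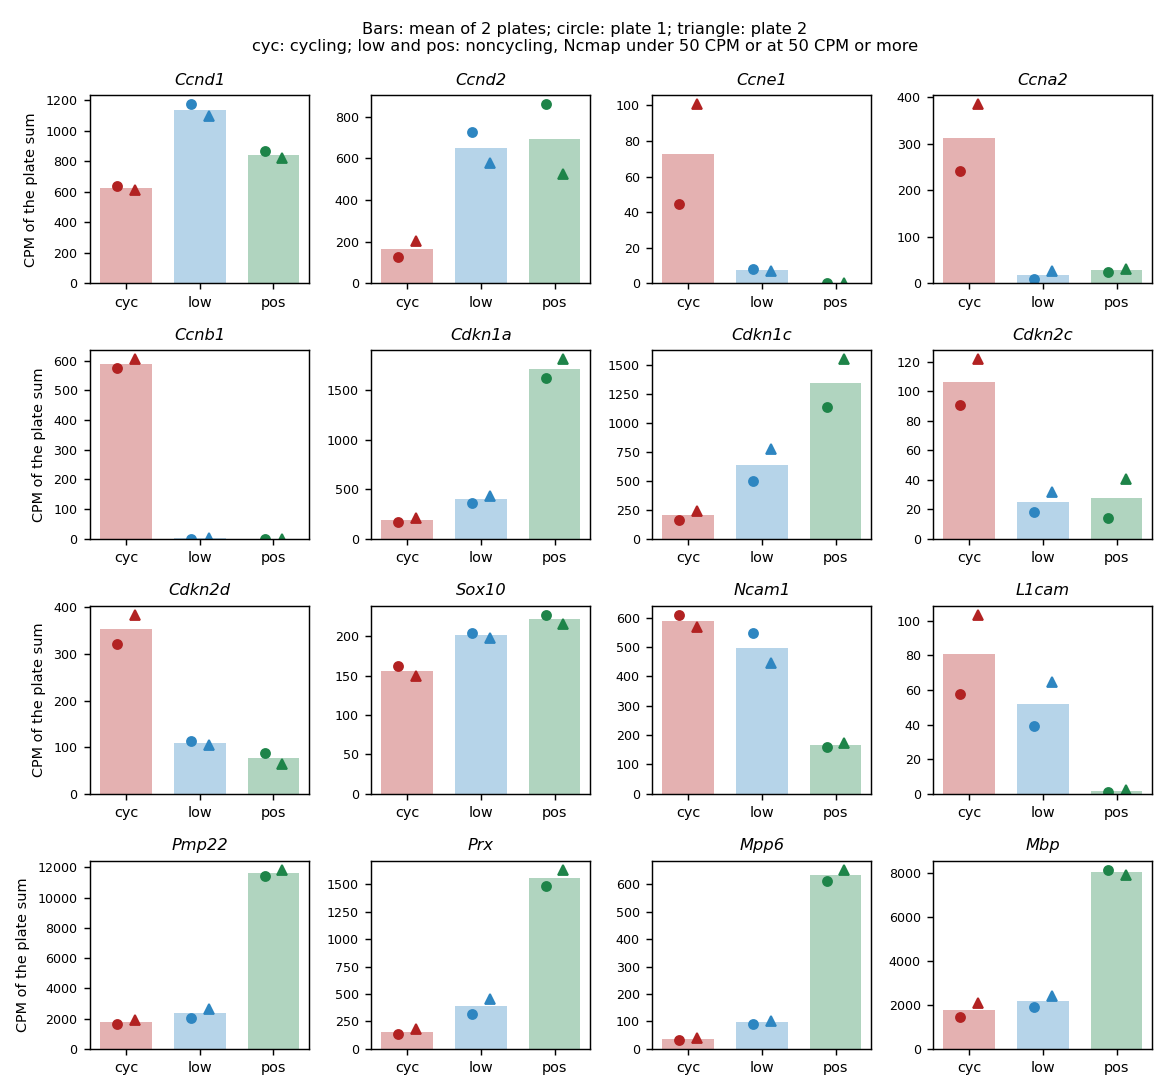
CPM of the plate sums of 16 genes in cycling SCs (cyc), noncycling Ncmap-low cells (low) and noncycling Ncmap-positive cells (pos), with circles for plate 1, triangles for plate 2 and bars at their mean. The noncycling classes were divided by their Ncmap level. Ccnd2 and Cdkn1a were below both noncycling classes on each plate, and Pmp22, Prx, Mpp6 and Mbp were highest in the Ncmap-positive cells.

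Genes of S phase stood above the other cells as groups, with fewer of them past the test than among mitotic genes. Of 25 genes of origin licensing and the helicase, 4 were higher and 0 lower (median log2 fold change 2.18), and with the plate as a block 8 were. Mcm3 (ENSMUSG00000041859, chr1:20802968-20820312), a subunit of the MCM helicase, took 106 CPM on plate 1 and 107 CPM on plate 2 in the cycling SCs, against 8.84 and 6.79 CPM in the other cells (log2 fold change 3.90 with an SE of 0.41, adjusted p 0.00843 in edgeR). Gmnn, geminin, which blocks a second licensing of origins, took 179 and 142 CPM against 17.4 and 18.6 (log2 fold change 3.29 with an SE of 0.34, adjusted p 0.00742 in edgeR). Mcm3 was nevertheless read in only 30 of the 110 members, and the top 3 cells held 39.7% of its reads there. Cdc45 and Gins2, which join the MCM ring to form the active helicase, were the other 2 that passed, with log2 fold changes of 5.68 and 2.18 (edgeR adjusted p 0.0339 and 0.0269).

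Of 29 genes of the replication fork, 10 were higher and 0 lower (median log2 fold change 2.37), and all 29 had a positive fold change (Top2a, also of this list, was not tested). Pcna (ENSMUSG00000027342, chr2:132249162-132253314), the sliding clamp of DNA polymerases, took 572 CPM on plate 1 and 576 CPM on plate 2 in the cycling SCs, against 175 and 175 CPM in the other cells (log2 fold change 1.85 with an SE of 0.19, adjusted p 0.00763 in edgeR). The 2 plates gave like values in each class. The others that passed were Clspn, Prim1, Prim2, Chaf1a, Lig1, Fen1, Rfc3, Tipin and Dnmt1. The log2 fold change was 4.96 for Clspn (claspin, a checkpoint adaptor), 3.83 for Prim1 (primase), 3.55 for Chaf1a (a histone chaperone) and 3.36 for the ligase Lig1, with edgeR adjusted p from 0.00720 to 0.00957. Of 22 genes of nucleotide supply, 3 were higher, Tk1 and Rrm1 among them. Tk1, thymidine kinase, took 243 CPM on plate 1 and 169 CPM on plate 2 in the cycling SCs, against 6.70 and 4.47 CPM in the other cells (log2 fold change 5.34 with an SE of 0.43, adjusted p 0.00283 in edgeR). Against the Ncmap-low cells, however, 0 of these 22 passed in edgeR (7 at an unadjusted p under 0.05, 6 in DESeq2 and 3 in limma), with an edgeR adjusted p of 0.109 for Tk1. Of 20 genes of DNA repair and its checkpoint, H2afx and Rad51ap1 were higher, with log2 fold changes of 4.48 and 4.46 (edgeR adjusted p 0.00274 and 0.0209), and with the plate as a block 7 were.

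Mitotic genes came next in the order of the cycle. Of 23 genes of mitotic entry 11 were higher (median log2 fold change 5.26), of 25 of the kinetochore and spindle checkpoint 19 (4.92), of 32 of the spindle and cytokinesis 23 (5.74) and of 20 of the APC/C and its substrates 5 (0.71). None of these genes was lower. The counts against the Ncmap-low cells were 9, 16, 15 and 4. Cdk1 (ENSMUSG00000019942, chr10:69335146-69352938) took 1185 CPM on plate 1 and 1148 CPM on plate 2 in the cycling SCs, against 11.98 and 16.1 CPM in the other cells (log2 fold change 6.51 with an SE of 0.26, adjusted p 9.28e-04 in edgeR). Ccnb1 (ENSMUSG00000041431, chr13:100778650-100786570) took 575 CPM on plate 1 and 605 CPM on plate 2 in the cycling SCs, against 0.108 and 1.13 CPM in the other cells (log2 fold change 10.03 with an SE of 1.18, adjusted p 0.0124 in edgeR), and with the plate as a block its edgeR adjusted p was 0.223. The reads of Ccnb1 outside the members came from 7 of 511 cells. Ccnb2 took 1102 CPM on plate 1 and 1010.0 CPM on plate 2 in the cycling SCs, against 54.4 and 34.5 CPM in the other cells, and Ccna2, cyclin A2, took 241 and 385 against 13.9 and 27.6 CPM (edgeR adjusted p 0.00192 and 0.00957). Ccna2 was also read in 120 of the other cells (23.5%). Ccnf, cyclin F, was read in 35 members and had 2 reads in 1 other cell, and Aurkb, the kinase of the chromosomal passenger complex, took 249 and 225 CPM against 3.28 and 2.40 (edgeR adjusted p 0.00124).

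At the kinetochore, which ties chromosomes to the spindle, Spc25 of the Ndc80 complex took 710.5 CPM on plate 1 and 598 CPM on plate 2 in the cycling SCs, against 1.22 and 5.16 CPM in the other cells (log2 fold change 7.83 with an SE of 0.78, adjusted p 0.00731 in edgeR, 0.0794 with the plate as a block). Ndc80 itself took 117 and 88.5 CPM and the checkpoint kinase Bub1b 147 and 69.9, with no more than 0.151 CPM in the other cells (edgeR adjusted p 0.0341 and 0.0241, 0.0584 and 0.0557 with the plate as a block). Ska1 was read in 57 members and 1 other cell. Of the spindle list, Birc5 took 1419 CPM on plate 1 and 1226 CPM on plate 2 in the cycling SCs, against 21.6 and 16.8 CPM in the other cells (log2 fold change 6.24 with an SE of 0.27, adjusted p 9.28e-04 in edgeR), and Tpx2 took 352 and 247 against 6.56 and 3.76 CPM (edgeR adjusted p 0.00274). The motor Kif2c took 88.4 and 160.1 against 0.0660 and 0.0711 CPM (edgeR adjusted p 0.00124), and Ckap2l, Spag5 and Cep55 had edgeR adjusted p of 0.00278, 0.00279 and 0.0407. Hmmr was the marker that did not pass, with 162 CPM on plate 1 and 119.6 CPM on plate 2 in the cycling SCs, against 0 and 0.347 CPM in the other cells (log2 fold change 9.81 with an SE of 1.72, adjusted p 0.0611 in edgeR), although its reads outside the members came from 1 cell.

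Some genes that end mitosis were also higher in the plate sums of the members. Ube2c (ENSMUSG00000001403, chr2:164769898-164778822), the ubiquitin-conjugating enzyme of the APC/C, took 1208 CPM on plate 1 and 962 CPM on plate 2 in the cycling SCs, against 7.49 and 3.90 CPM in the other cells (log2 fold change 7.71 with an SE of 0.45, adjusted p 0.00124 in edgeR), and its activator Cdc20 took 936 CPM on plate 1 and 1127 CPM on plate 2 in the cycling SCs, against 40.9 and 62.1 CPM in the other cells (log2 fold change 4.46 with an SE of 0.28, adjusted p 0.00159 in edgeR). Cdc20 overlaps Elovl1, and Ube2c Tnnc2, on the opposite strand. Fzr1 (Cdh1), the activator that acts after mitosis and in G1, took 210.2 and 107 against 29.1 and 27.01 CPM (edgeR adjusted p 0.0460). Most subunits of the APC/C itself did not pass, and Cdc23 was the exception. Of 26 genes of condensin, cohesin and chromatin 13 were higher (median log2 fold change 2.27). The condensin subunits Smc2, Smc4, Ncapd2 and Ncaph were among them, with 823 and 678 CPM of Smc4 against 60.8 and 70.2 (edgeR adjusted p 0.00174). Hmgb2, a chromatin protein that bends DNA, took 1896 CPM on plate 1 and 1573 CPM on plate 2 in the cycling SCs, against 77.8 and 88.2 CPM in the other cells (log2 fold change 4.52 with an SE of 0.22, adjusted p 9.44e-04 in edgeR). The histone variant H2afz reached 6464 and 4635 CPM against 740.1 and 757 (edgeR adjusted p 0.00261) and was read in every member and in 93.5% of the other cells, so its difference lay in level rather than in presence.

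The next question was where cycling SCs stand on the way from immature to promyelinating cells. Among the genes of SC identity, the transcription factor Sox10, on which SC fate depends, took 163 CPM on plate 1 and 149.7 CPM on plate 2 in the cycling SCs, against 210.5 and 202 CPM in the other cells (log2 fold change -0.27 with an SE of 0.23, adjusted p 0.711 in edgeR). Of 15 tested genes of immature SCs 0 passed against all other cells and 0 against the Ncmap-low cells by edgeR, with 5 and 3 at an unadjusted p under 0.05. DESeq2 called 3 and 2 of them as higher and limma 0. Against the Ncmap-positive cells 7 were higher (Ngfr, Ncam1, L1cam, Sox2, Cdh2, Chl1 and Jun) and Nes was lower. The adhesion molecule L1cam took 57.9 and 104 CPM in the members, 39.4 and 64.5 in the Ncmap-low cells and 0.978 and 1.92 in the Ncmap-positive cells. The members lay on the side of the Ncmap-low cells, from which L1cam did not differ by the test (edgeR adjusted p 0.698, against 0.00164 for the Ncmap-positive cells). Ngfr, the p75 neurotrophin receptor, took 50.6 and 35.7, 57.7 and 46.9, and 0.575 and 0 CPM in that order (edgeR adjusted p 0.990 and 0.0248). Ncam1 took 611 and 568, 548 and 445, and 158 and 173 CPM (edgeR adjusted p 0.589 and 0.00151), and against all other cells its edgeR adjusted p was 0.272, or 0.0480 with the plate as a block. Sox2, a factor that holds SCs immature, took 48.9 CPM on plate 1 and 91.2 CPM on plate 2 in the cycling SCs, against 20.5 and 22.4 CPM in the other cells and did not pass (log2 fold change 1.83 with an SE of 0.46, adjusted p 0.182 in edgeR).

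Several myelin genes were lower in cycling SCs than in all other cells, and most of the list did not pass. Of 20 genes of myelin proteins 7 were lower than in all other cells, among them Pmp22, Prx, Fa2h, Gldn, Mpp6 and Emid1, and 11 with the plate as a block. Against the Ncmap-low cells 1 of 19 was lower, and against the Ncmap-positive cells, which were chosen on a gene of this list, 12 were. Whether the differences against these classes differ from each other was not tested. Pmp22 (ENSMUSG00000018217, chr11:63128982-63159547), a protein of compact myelin, took 1642 and 1876 CPM in the members, 2052 and 2639 in the Ncmap-low cells and 11463 and 11856 in the Ncmap-positive cells (edgeR adjusted p 0.0107 against all other cells and 0.565 against the Ncmap-low cells). Mbp, which compacts the cytoplasmic side of the sheath, took 1433 CPM on plate 1 and 2077 CPM on plate 2 in the cycling SCs, against 3441 and 3695 CPM in the other cells and did not pass (log2 fold change -0.90 with an SE of 0.19, adjusted p 0.110 in edgeR), whereas with the plate as a block its edgeR adjusted p was 0.00179. Prx, periaxin, took 131 CPM on plate 1 and 178 CPM on plate 2 in the cycling SCs, against 606 and 730.1 CPM in the other cells (log2 fold change -1.98 with an SE of 0.23, adjusted p 0.0114 in edgeR), and against the Ncmap-low cells its edgeR adjusted p was 0.0585, or 0.0101 with the plate as a block. Mpp6, a scaffold protein, was the gene lower in all 3 comparisons, at 31.2 and 40.7 CPM against 91.8 and 103 in the Ncmap-low cells (edgeR adjusted p 0.0401). Emid1 and Fa2h, the enzyme that hydroxylates fatty acids of myelin lipids, were read in 7 and 10 members. Gldn, which gathers sodium channels at the node, had no read in the members, which leaves room for up to 2.73% of cells with a read, and was read in 50 of the 511 other cells. Of its 8145 reads in the other cells, 8144 lay in the Ncmap-positive cells, so the Ncmap-low cells all but lacked it too. One member had Ncmap at 50 CPM or more.

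The factors and pathways that serve myelination and growth gave no call in edgeR against all other cells. This holds for 20 transcription factors of myelination, 23 genes of cholesterol synthesis and uptake, 16 of fatty acid synthesis, 18 of glycolysis and 20 of ribosome biogenesis. In that order the lists held 3, 1, 4, 1 and 1 genes at an unadjusted p under 0.05, DESeq2 called 3, 1, 2, 1 and 1, and limma called 0. Pou3f1 (Oct6), the factor of the promyelinating stage, took 50.4 CPM on plate 1 and 76.96 CPM on plate 2 in the cycling SCs, against 140.2 and 170.5 CPM in the other cells (log2 fold change -1.16 with an SE of 0.32, adjusted p 0.213 in edgeR), and against the Ncmap-positive cells it was lower (edgeR adjusted p 0.0185). With the plate as a block, Elovl1, an enzyme that lengthens fatty acids and overlaps Cdc20, and Ldhb, of lactate metabolism, were lower (edgeR adjusted p 0.0118 and 0.00117, against 0.172 and 0.219 without it). Ldhb stood at 1162 and 831 CPM against 2291 and 1757. Npm1 and Ncl, abundant proteins of the nucleolus, took 634 and 604 and 482 and 288 CPM in the members (edgeR adjusted p 0.686 and 0.803). Of 14 tested p53 targets Cdkn1a alone was lower, and Bax took 172 and 251 against 259 and 279 CPM (edgeR adjusted p 0.797).

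Cells were released by enzymes at 37°C, which is known to switch on immediate early genes. Of 15 such genes 0 passed in edgeR against all other cells (2 at an unadjusted p under 0.05, 0 in DESeq2 and 0 in limma), and 7 were higher than in the Ncmap-positive cells (Fos, Fosb, Egr1, Atf3, Ier2, Btg2 and Dusp1). Fos took 3623 and 5469 CPM in the members, 4386 and 4560.5 in the Ncmap-low cells and 1871 and 1961 in the Ncmap-positive cells. In this respect too the members lay near the Ncmap-low cells (edgeR adjusted p 0.881, against 0.00479 for the Ncmap-positive cells). The part of the dissociation in the differences from the Ncmap-positive cells was not tested.

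Outside the lists, the largest rises by the same test were in other genes of chromosome duplication and division and in Neurl1b and Arhgef39, for which no role is given here. Ankle1, Fam83d and Neurl1b had no read in the 511 other cells, which leaves room for up to 0.587% of cells with a read. Against a floor of 3 reads per plate sum, and taking the plate with the lower bound, Ankle1, which encodes a nuclease, was at least 3577-fold higher (95.9 and 47.7 CPM, edgeR adjusted p 0.00394), Fam83d, a spindle protein, at least 4161-fold (88.4 and 55.5 CPM, edgeR adjusted p 0.00283) and Neurl1b at least 1176-fold (16.6 and 126 CPM, edgeR adjusted p 0.0231). These bounds cover the counting of reads and not the sampling of cells. The level of Neurl1b differed widely between plates, and 3 cells held 67.2% of its reads, whereas Ankle1 was read in 38 members and Fam83d in 36. Esco2, which acetylates cohesin in S phase, was read in 50 members and 1 other cell, and the DNA glycosylase Neil3 in 53 members and 2 other cells. Cdca5 (sororin), the protector of cohesin, took 130.2 CPM on plate 1 and 128 CPM on plate 2 in the cycling SCs, against 0.0141 and 0.0311 CPM in the other cells (log2 fold change 12.55 with an SE of 0.63, adjusted p 9.44e-04 in edgeR). Its reads came from 44 members and 2 other cells, so the size of the fold is uncertain. Pbk, a mitotic kinase, took 333 and 529 CPM against 0.231 and 3.05 (edgeR adjusted p 0.0396, 0.107 with the plate as a block). Arhgef39 completed the list at 110.1 and 93.9 CPM (edgeR adjusted p 0.0134).

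Among genes lower outside the lists was another myelin gene. Pmp2, a fatty acid binding protein of peripheral myelin, took 29.3 CPM on plate 1 and 13.4 CPM on plate 2 in the cycling SCs, against 600.1 and 559 CPM in the other cells (log2 fold change -4.61 with an SE of 0.45, adjusted p 0.00642 in edgeR). The Ncmap-positive cells stood at 2265 and 2175 CPM and the Ncmap-low cells at 57.2 and 71.8 CPM. Against the Ncmap-low cells Pmp2 did not pass (edgeR adjusted p 0.139). It shares its reads with the overlapping annotation Gm37389, which followed it, so the split between them is uncertain. Rasal2, a GTPase-activating protein for Ras, took 231 CPM on plate 1 and 169 CPM on plate 2 in the cycling SCs, against 949.5 and 752 CPM in the other cells (log2 fold change -1.95 with an SE of 0.26, adjusted p 0.0217 in edgeR), and Ptpre, a protein tyrosine phosphatase, 42.6 and 44.2 against 293 and 235 CPM (edgeR adjusted p 0.00957). Stat3, a factor activated by cytokines, took 9.46 CPM on plate 1 and 5.81 CPM on plate 2 in the cycling SCs, against 69.9 and 82.8 CPM in the other cells (log2 fold change -3.18 with an SE of 0.51, adjusted p 0.0415 in edgeR), and was lower against the Ncmap-low cells as well (edgeR adjusted p 0.0212). Its adjusted p ranged from 1.99e-08 with DESeq2 to 0.110 where 25 CPM of each choosing gene were asked for, and missed the threshold in 5 of 10. The top 3 cells held 56.3% of its reads in the members, and Stat3 overlaps Stat5a on the opposite strand. Dusp15, Borcs5 and Lpcat1 were lower with edgeR adjusted p of 0.0374, 0.0226 and 0.0357. Against the Ncmap-low cells Rasal2, Ptpre and Borcs5 were lower (edgeR adjusted p 0.0463, 0.00632 and 0.0113). Dusp15 and Lpcat1 did not pass there (edgeR adjusted p 0.200 and 0.592). Pdgfrb, kept in the list of mural markers, had no read in any member and took 26.4 and 32.2 CPM in the other cells, 53 of which had a read (edgeR adjusted p 0.0130). Against the floor the members were at least 417-fold lower on either plate, a bound on reads that does not cover the sampling of cells. By cells, no read in the 110 members leaves room for up to 2.73% with a read. Acta2 and Rgs5 of the same list were at 0 in all cells, and Cspg4 stood at 36.7 and 24.8 CPM in the members against 16.4 and 16.9.

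Members also differed among themselves. The summed level of the licensing list in a member had a median of 1233 CPM (0 to 4348), against 325 CPM in the other cells, and that of the kinetochore list a median of 6858 CPM (5.39 to 17591), against 316 CPM. At 50 CPM, 104 members had both lists, 5 the kinetochore list without licensing, 1 licensing without the kinetochore and 0 neither. The other cells often reached this level too, with both lists in 277 of 511 (54.2%), licensing in 378 (74.0%) and the kinetochore list in 360 (70.5%), so it does not set members apart. At 200 CPM, 100 members (90.9%) and 179 other cells (35.03%) had both. Across the 110 members the levels of the replication fork and licensing lists had a Spearman correlation of 0.736, and those of the kinetochore and spindle lists 0.783. These points share libraries and come from cells of unequal depth, whose correlation with the licensing list was 0.0461 and with the kinetochore list 0.156. Between licensing and the mitotic lists the values lay from -0.339 to 0.00560. None of these correlations was tested, since cells are not replicates, and nothing is read from their sign. Single genes were patchier than lists. Cdk1 was read in 85 members with a median of 1190 CPM (0 to 3829), Ccnb1 in 82 with a median of 254 CPM (0 to 3518), Ube2c in 72 with a median of 769.9 CPM (0 to 6874) and Ccne1 in 31, so that its median was 0.

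**Figure D4:**
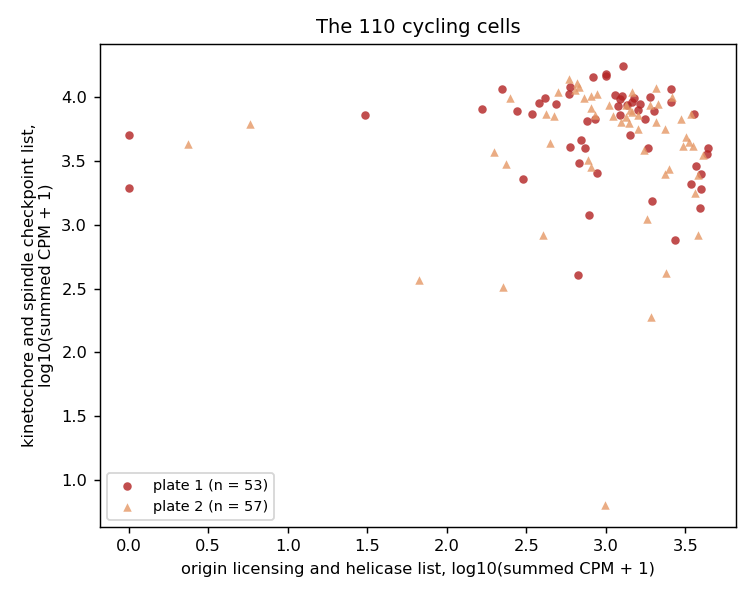
Summed level of the kinetochore and spindle checkpoint list against that of the origin licensing and helicase list in each of the 110 cycling SCs, both as log10(summed CPM + 1), with circles for plate 1 and triangles for plate 2. Most cells of both plates lie at the upper right, with 104 at 50 CPM or more of both lists, a level that 277 of the 511 other cells, not drawn, also reached.

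Promoters of the genes of the lists, whether or not they passed the test, were searched for known motifs of cell cycle control. The cell cycle genes homology region (CHR), with the letters TTTGAA or TTCGAA, is the site through which the MuvB complexes (DREAM and B-Myb or FoxM1 with MuvB) bind late cycle genes, CCAAT boxes bind NF-Y, and E2F sites bind the E2F and DREAM factors that act from G1 to S. E2F sites were searched as TTTCGCGC, TTTGGCGC, TTTCCCGC or TTTGCCGC. Both strands of the window from 250 bases before to 50 after each RefSeq start (build GRCm38.p6) were searched, and none of these words contains another. Shown here are the 150 bases before the start on the strand of the gene, 5′ to 3′, for the 2 choosing genes, for 4 mitotic genes and for 2 replication genes, with the matches in capitals. A match to the opposite strand reads ATTGG for CCAAT and TTCAAA for TTTGAA. The windows are chr7:135716380-135716529 (minus strand) for Mki67, chr11:99024190-99024339 (minus) for Top2a, chr10:69352913-69353062 (minus) for Cdk1, chr13:100786487-100786636 (minus) for Ccnb1, chr2:164769779-164769928 (plus) for Ube2c, chr4:118437344-118437493 (minus) for Cdc20, chr5:151651209-151651358 (minus) for Rfc3 and chr1:128359706-128359855 (minus) for Mcm6.
Mki67: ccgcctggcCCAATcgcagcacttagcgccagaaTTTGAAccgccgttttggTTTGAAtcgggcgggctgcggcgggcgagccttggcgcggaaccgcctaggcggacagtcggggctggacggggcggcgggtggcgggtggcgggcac
Top2a: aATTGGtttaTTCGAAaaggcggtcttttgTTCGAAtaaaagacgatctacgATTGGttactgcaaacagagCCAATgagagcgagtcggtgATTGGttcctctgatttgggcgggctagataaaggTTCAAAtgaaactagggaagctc
Cdk1: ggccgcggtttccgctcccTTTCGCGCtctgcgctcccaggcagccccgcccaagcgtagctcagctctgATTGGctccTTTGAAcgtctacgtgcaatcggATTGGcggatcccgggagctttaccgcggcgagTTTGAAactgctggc
Ccnb1: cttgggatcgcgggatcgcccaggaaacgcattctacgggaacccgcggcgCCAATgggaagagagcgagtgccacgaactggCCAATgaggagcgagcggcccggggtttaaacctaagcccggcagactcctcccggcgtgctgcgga
Ube2c: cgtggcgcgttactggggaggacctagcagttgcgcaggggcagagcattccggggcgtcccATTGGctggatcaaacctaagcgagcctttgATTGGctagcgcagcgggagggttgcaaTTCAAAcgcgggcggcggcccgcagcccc
Cdc20: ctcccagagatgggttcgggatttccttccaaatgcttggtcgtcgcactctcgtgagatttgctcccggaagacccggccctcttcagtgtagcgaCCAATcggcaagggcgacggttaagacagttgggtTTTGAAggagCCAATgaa
Rfc3: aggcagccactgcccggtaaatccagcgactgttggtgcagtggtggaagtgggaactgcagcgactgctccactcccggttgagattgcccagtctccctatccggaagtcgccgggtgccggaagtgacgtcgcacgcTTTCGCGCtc
Mcm6: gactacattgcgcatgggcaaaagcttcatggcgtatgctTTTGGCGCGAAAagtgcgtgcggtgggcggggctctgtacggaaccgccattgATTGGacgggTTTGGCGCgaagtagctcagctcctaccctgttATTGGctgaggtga

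Mki67 holds a CCAAT box followed by 2 CHR words, Top2a 4 CCAAT and 3 CHR words, and Cdk1 has all 3 kinds. Ccnb1 has 2 CCAAT boxes and no CHR word in these bases. Ube2c and Cdc20 have a CHR word close to the start with CCAAT boxes beside it, Rfc3 a single E2F site and Mcm6 3 E2F words, of which 2 overlap on opposite strands. Rfc3 passed the test (log2 fold change 1.62 with an SE of 0.27, adjusted p 0.0473 in edgeR) and Mcm6 did not (log2 fold change 1.44 with an SE of 0.55, adjusted p 0.319 in edgeR). A match describes letters and not binding.

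Over whole lists the CHR was common in mitotic promoters. Of the 80 genes of the mitotic entry, kinetochore and spindle lists combined, 64 had a promoter window, and 43 of these (67.2%) held a CHR word, against 13 of 66 genes of the licensing, fork and nucleotide lists (19.7%), 16.3% of the 9742 tested genes with a window and 21.7% of all 27025 genes of the table. E2F words had the reverse order, with 19 of 66 replication genes (28.8%) and 5 of 64 mitotic genes (7.81%), against 4.85% of tested genes. Among the single lists E2F words were found in 45% of 20 licensing genes, 44.4% of 18 genes of G1 and S control, 34.6% of 26 fork genes and 5.0% of 20 genes of nucleotide supply. CCAAT was frequent in both, in 57.6% and 70.3%, and also in 43.2% of tested genes. A CHR and a CCAAT word together were found in 54.7% of mitotic, 12.1% of replication and 6.96% of tested genes. The condensin, cohesin and chromatin list held CHR words in 55% and E2F words in 35% of 20 genes. Of 15 myelin protein genes 3 had a CHR and 0 an E2F word. On the coding strand alone the mitotic CHR share was 48.4%, since the word is read in either direction.

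**Figure D5:**
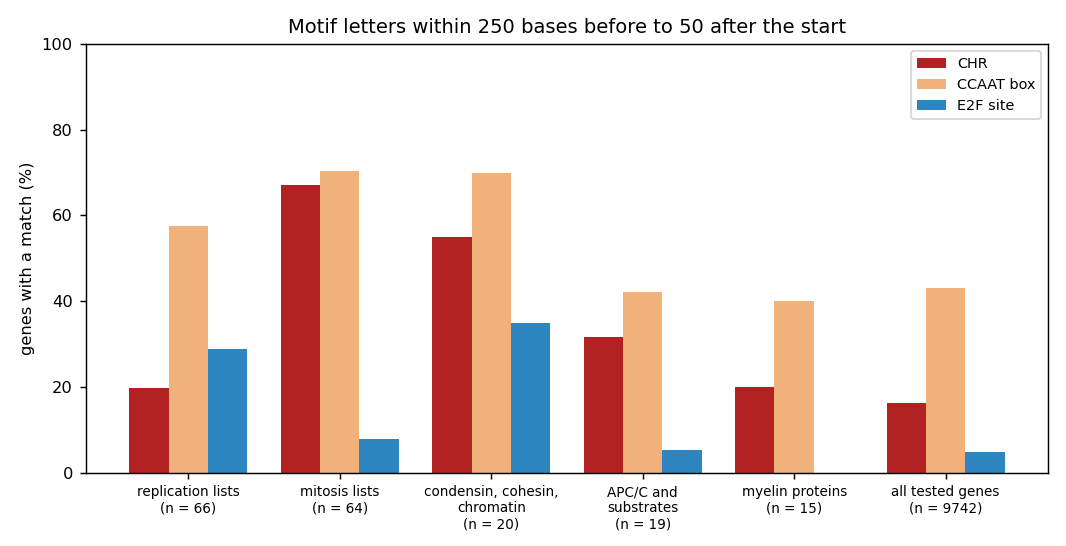
Percent of genes whose promoter window holds the letters of a CHR (red), a CCAAT box (orange) or an E2F site (blue) on either strand, for 5 groups of lists and for all tested genes, with the number of genes that had a window. Of the groups drawn, the mitosis lists had the highest CHR share (67.2%) and the condensin, cohesin and chromatin list the highest E2F share (35%).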

How the data were processed

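The sources were the study's methods, the sample labels and the processing notes of the submitters. Cells of the sciatic nerve were released by enzymes, sorted for eYFP into 384-well plates and read by miniaturised Smart-seq2. The authors deposited whole-number counts of reads per gene and well. The notes name STAR 2.6.1c, GRCm38.p5, bcl2fastq and featureCounts, whereas the methods name a human build; the gene identifiers are all of the mouse. Stranded counting and the filters applied before deposit are not given in the sources used here.

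The table held 25700 genes in 743 wells (370 and 373 per plate), each well with a label of its own, and 0 pairs of wells were identical. Of the gene identifiers, 25587 were paired with symbols through GENCODE M21, and 16 shared a symbol with another. Wells with at least 1500 genes were kept (621), and 122 were set aside. No doublet caller was run, and 1 cell was sorted per well. Members were the cells with at least 50 CPM of Mki67 and Top2a in sum. Members, Ncmap classes and gene lists (484 genes in 31 lists, 483 of them in the table) were chosen with earlier results of these data known. Counts were summed per plate and class, and genes with low counts were removed by edgeR's filterByExpr. The sums were fitted with edgeR 4.0.16 (TMM scaling, quasi-likelihood test, Benjamini-Hochberg adjustment) in R 4.3.3, all 3 classes together for the comparisons by Ncmap class and without a plate term. Cells of a plate come from the same pool of mice, so plates pair the samples. Over 3705 genes the deviations of the sums of a plate correlated with r from 0.105 to 0.220. The fit with the plate as replicate block is given for some of the genes and lists whose calls it changed. P-values rest on the spread between the plate sums of a class. That spread holds the sampling of cells and reads as well as the 2 pools of mice. The SE beside an edgeR log2 fold change is its absolute value divided by the square root of the F statistic of the test. It was not estimated separately, and for genes with almost no reads in a class it does not give the precision of the fold. Alternatives were the block, no filter, DESeq2 1.42.0, limma 3.58.1 on log2(mean CPM + 1), other cuts on CPM and genes, each cell thinned to 50000 reads, and leaving out each plate. Choosing genes were not tested. The genes named were the markers, up to 4 called genes of each list with the largest fold change and at least 20 CPM in the higher class, the most abundant 3 where fewer than 2 passed, all cyclins, inhibitors and E2F genes, and outside the lists up to 8 in each direction with at least 50 CPM. Any other gene was picked for its role after its values were seen. Promoters were RefSeq windows of GRCm38.p6. The edgeR test without a plate term was tried on simulated counts for each comparison, drawn without pairing by plate. DESeq2, limma and the fit with the block were not tried in this way. Tables were handled in Python 3.11.15 with pandas 2.3.3 and scipy 1.17.1. Some members of the lists are not reported here by name.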

Additional observations from a re-analysis of the deposited data

Results flagged for a closer look

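Of the 122 wells set aside for having fewer than 1500 genes with a read, 2 reached the 50 CPM that chose cycling cells, both on plate 1. In the first, of 1168 genes and 9066 reads, Mki67 and Top2a summed to 1323.6 CPM, all of it from Top2a. In the other, of 229 genes and 272 reads, they summed to 3676.5 CPM, all of it from Mki67. Neither well entered a sum or a test.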

How the results depend on the processing

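Counts of called genes against all other cells were 203, and 394 with the plate as replicate block, 366 without the filter on low counts, 1141 with DESeq2 and 330 with every cell thinned to 50000 reads. Against the Ncmap-low cells they were 130, and 316 without the filter, 811 with DESeq2, 230 with limma and 245 thinned. Against the Ncmap-positive cells they were 788, and 1288 without the filter, 2310 with DESeq2 and 1340 with limma. The settings not named moved these counts by less than 1.5 times. Of the 203 calls, the other settings made from 136 (25 CPM of each choosing gene) to 203 (DESeq2), with 164 in cells of at least 2500 genes, 166 at 200 CPM, 178 with limma and 198 with the block. The share of cycling cells, 17.8%, was 16.3% at 200 CPM, 12.2% with 25 CPM of each gene, 19.5% in cells of at least 2500 genes, and 17.1 to 18.5% without 1 plate. The difference in genes per cell, 525, was 433.25 after thinning and 469.5 to 580 without 1 plate. On 1 strand, CHR words were found in 48.4% of mitotic promoters (67.2% on both) and E2F words in 15.2% of replication promoters (28.8%). Without 1 plate, all 203, 130 and 788 called genes had the fitted direction on the plate that remained. The calls were made on the same 2 plates, so this outcome is largely built in and adds no support. No named gene that was called changed direction under any setting, whereas some that were not called, such as Erbb3, Ngfr and Fos, did. Of the 64 named genes called against all other cells, 33 missed the threshold in at least 1 of 10 settings, and of the 48 not called, 11 passed it in at least 1. With 2 plates, leaving one out allows no test. Depth limits single genes more than lists, since a gene read in few cells can owe most of its reads to 3 of them.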
